A study of Mus musculus with 2 samples.

Results

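A set of 9 genes that brake the cell cycle or belong to the p53 pathway was examined for open chromatin in mouse intestinal enteroids: Cdkn2a, Cdkn2b, Cdkn1a, Cdkn1b, Cdkn2c, Trp53, Mdm2, Bbc3 and Ccng1. They were chosen by gene name, with no threshold on their peaks, and make up 9 of the 22238 protein-coding gene symbols annotated on mm9. Their annotated start sites formed 18 promoters of 39773 over all protein-coding genes, when start sites of a gene at most 1 kb apart were joined. Promoters of a gene were numbered in the direction of transcription.

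Cyclin-dependent kinases (CDKs) drive cells into DNA replication, and the INK4 proteins (from Cdkn2a, Cdkn2b and Cdkn2c) and CIP/KIP proteins (from Cdkn1a and Cdkn1b) block them. The p53 protein, encoded by Trp53, is stabilised by DNA damage and activates genes that arrest or kill the cell, among them Cdkn1a, Ccng1 and Bbc3, and it also activates Mdm2, whose product destroys p53. Cdkn2a makes unrelated proteins from separate promoters, the CDK inhibitor Ink4a and the Mdm2 antagonist Arf, and its locus is a classical target of Polycomb repression. In the intestine, some genes of these pathways are known to balance the fast division of crypt cells against arrest and death.

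ATAC-seq, which marks open DNA by the cuts of a transposase, was done on enteroids, which are crypt cultures of the epithelium, grown here from the ileum of C57Bl6/129sv mice of 4 months. Control enteroids carried Taf4 lox/lox alleles of the gene for a TFIID subunit, and Taf4-inactivated enteroids carried the same alleles with VilCreERT2, a tamoxifen-dependent Cre driven by the epithelial Villin promoter. Both received 1 µM 4-hydroxytamoxifen (4-OHT) for 3 days, so loss of Taf4 and presence of the recombinase cannot be told apart. There was 1 library per genotype, so each difference describes these 2 libraries and no test between genotypes was made.

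The deposited lists held 90445 peaks in control and 71282 in the Taf4-inactivated library, a ratio of 1.27. The depth ratio of control over Taf4-inactivated, estimated from fold enrichment and p of the peaks, was 1.65. Because fold enrichment is set against each library's own background, peaks were compared by the percentile of their fold within their own list, where 100 is the strongest peak. A difference in percentile (Taf4-inactivated minus control) of at least 20 points was called. Over the 16317 protein-coding promoters with a peak in both lists, the median difference was -2.75 points, with quartiles of -11.2 and 3.13, and 64.5% were lower in the Taf4-inactivated list. Of 8 epithelial marker genes, 7 had a start site peak in control and 8 after Taf4 inactivation, and the only one without a control peak was Krt20. Of the 7 with a peak in both lists, Vil1, Epcam and Lgr5 stood at -18.9, -18.8 and -16.9 points. The other 4 were higher, by 1.01 to 3.64 points, the median over the 7 was 1.01, and none was called. Of 11 markers of immune, endothelial, mesenchymal, muscle, glial and neural cells, 6 had a peak in control and 4 after Taf4 inactivation, and Ptprc, Cd3e, Cdh5, Col3a1 and Acta2 had none in either. Pecam1 and Sox10 had a peak in control only, at percentiles 21.8 and 0.244. Of the 4 with a peak in both lists, Pdgfra and Des were called lower, at -41.0 and -28.7 points, and Elavl4 stood at -12.7 and Col1a1 at 7.36. Over all protein-coding genes with a peak in both, 12.3% were called lower. The median was -20.7 over these 4 markers, beside -2.77 over all such genes. The part of other cell types in the differences below was not tested. The start site peak of Taf4a, the targeted gene, was at percentile 74.7 in control and 58.7 after Taf4 inactivation, which does not show whether the floxed part was deleted.

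A set of 4 promoter sequences of INK4 and CIP/KIP genes is shown. Of the paired Cdkn2a promoters, promoter 1 had a peak in both lists and promoter 2 in control alone. The others are the neighbouring Cdkn2b promoter and the middle Cdkn1a promoter, the only one of that gene with a peak. Each is the 200 bases before the first start site, 5′ to 3′ in the direction of transcription, read from mm9, and capitals mark the GC box GGGCGG on either strand.
Cdkn2a promoter 1 (Arf), chr4:88940558-88940757, minus strand: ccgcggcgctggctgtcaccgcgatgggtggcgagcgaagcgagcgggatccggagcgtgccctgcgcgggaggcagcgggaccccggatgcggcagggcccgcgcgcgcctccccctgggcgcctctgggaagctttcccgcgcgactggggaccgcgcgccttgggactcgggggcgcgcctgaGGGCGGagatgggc
Cdkn2a promoter 2 (Ink4a), chr4:88928097-88928296, minus strand: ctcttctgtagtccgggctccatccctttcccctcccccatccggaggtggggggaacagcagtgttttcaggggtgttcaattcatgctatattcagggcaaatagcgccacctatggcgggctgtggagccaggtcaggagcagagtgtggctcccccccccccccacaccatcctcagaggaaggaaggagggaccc
Cdkn2b promoter 1, chr4:88956942-88957141, minus strand: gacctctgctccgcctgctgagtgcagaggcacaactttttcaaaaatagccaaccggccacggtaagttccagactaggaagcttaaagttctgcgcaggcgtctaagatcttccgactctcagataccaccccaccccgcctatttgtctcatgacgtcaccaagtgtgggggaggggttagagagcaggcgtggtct
Cdkn1a promoter 2, chr17:29230517-29230716, plus strand: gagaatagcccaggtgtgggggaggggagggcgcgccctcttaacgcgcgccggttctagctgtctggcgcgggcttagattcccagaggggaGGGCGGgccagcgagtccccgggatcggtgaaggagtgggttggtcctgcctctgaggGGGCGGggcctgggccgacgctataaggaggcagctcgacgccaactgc
The Arf promoter was the richest in G and C, at 78.5%, and its CpG dinucleotides stood at 1.02 of the number its base composition predicts. The Ink4a promoter held 61.0% G and C but only 0.216 of the predicted CpG. Cdkn2b had 54.5% and 0.607, and Cdkn1a promoter 2 had 69.0% and 0.760. The GC box, the site that Sp1 binds, occurred 1 time before the Arf promoter and 2 times before Cdkn1a promoter 2, and was not found in the other windows.

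At least 1 start site peak, meaning a peak within 1 kb of an annotated start site, was present for all 9 genes in both lists. Among protein-coding genes this held for 68.5% in control and 65.7% after Taf4 inactivation. Of the 18 promoters, 14 had a peak in control and 12 after Taf4 inactivation, where the shares over all protein-coding promoters were 49.3% and 45.0%. The 12 of the Taf4-inactivated list were all among the 14. The remaining 2 promoters, Cdkn2a promoter 2 and Trp53 promoter 3, had a peak in control only, a class that held 8.27% of all promoters. None of the 18 had a peak in the Taf4-inactivated list only, against 4.02% of all promoters. In such cultures of mixed cell types, a site open in fewer cells and a site less open in each cell cannot be told apart. No peak lay near the other 4, which were Cdkn1a promoters 1 and 3, Trp53 promoter 2 and Mdm2 promoter 2. The counts of promoters share peaks: those of Cdkn2c, Bbc3 and Ccng1 lie close enough for 1 peak to reach both, and each list held 11 distinct start site peaks of members.

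**Figure D1:**
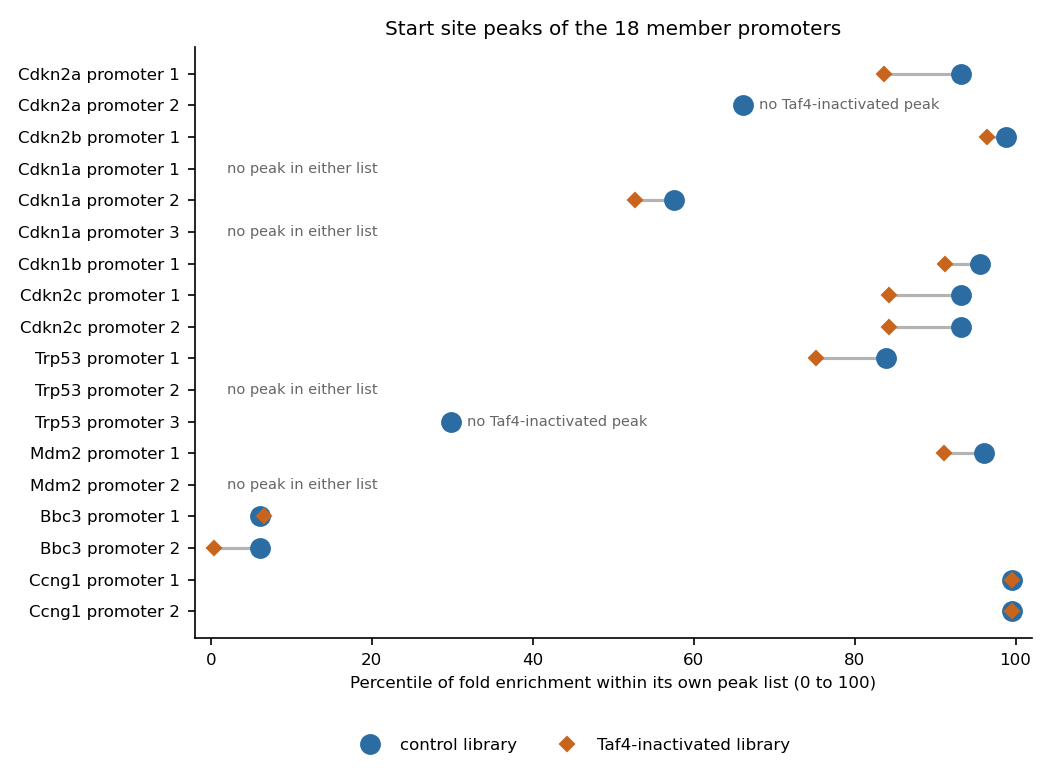
Percentile of fold enrichment (horizontal axis, 0 to 100 within each library's own list) of the highest-fold start site peak of each of the 18 promoters, with large circles for the control library and small diamonds for the Taf4-inactivated library, 1 library each. Grey lines join both values of a promoter; none of the 12 joined pairs differs by 20 points, and 2 promoters have a control point only.

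None of the 12 promoters with peaks in both lists was called, in either direction. Over all such promoters 9.27% were called higher and 13.2% lower. The differences of the 12 ran from -9.46 to 0.494 points, with 9 lower and 3 higher in the Taf4-inactivated list and a median of -4.94, beside the median of -2.75 over all. The 3 higher ones were Bbc3 promoter 1 and both promoters of Ccng1, each by under 1 point. Ranked by width, the differences at Cdkn2a promoter 1, Cdkn2b, Cdkn1a promoter 2, Cdkn1b, both Cdkn2c promoters and both Ccng1 promoters were positive. Those at Trp53 promoter 1, Mdm2 promoter 1 and both Bbc3 promoters were negative. The plot of percentiles by promoter shows most members at the right edge in both lists, with Cdkn1a in the middle and Bbc3 at the left edge.

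Cdkn2a promoter 1, the Arf promoter, starts at chr4:88940557 on the minus strand. In control its peak spanned chr4:88940231-88941604, with a fold of 2.75 at percentile 93.2. The Taf4-inactivated peak spanned chr4:88940318-88941811, with a fold of 3.31 at percentile 83.7. The difference of -9.46 points was the most negative among the members and lay within the quartiles of all promoters. Ranked by p it was -13.2 and among start site peaks alone -13.5, while by width it was 4.99. Both peaks lay mainly upstream of the start site, the control peak from 1047 bp before it to 326 bp after it, and the Taf4-inactivated peak from 1254 bp before to 239 bp after.

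Cdkn2a promoter 2, the Ink4a promoter, starts at chr4:88928096. A narrow control peak of 335 bp, at chr4:88927941-88928275, covered its start site, with a fold of 2.14, percentile 66.1 and −log10 q of 2.11. The Taf4-inactivated list held no peak within 1 kb of this start site. Among the control peaks at protein-coding promoters that had a peak in control only, the median percentile was 31.9 and the median width 605 bp, and 30.2% had a −log10 q at least as high as this one. The lower estimated depth of the Taf4-inactivated library goes with the missing peak, and its part in it was not tested.

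Cdkn2b, which encodes the INK4 inhibitor p15, has a promoter starting at chr4:88956941, upstream of Cdkn2a on the same strand. Its peak was among the strongest of the members in both lists. The control peak, chr4:88956408-88957222, had a fold of 3.44 at percentile 98.8. The Taf4-inactivated peak, chr4:88956390-88957171, had a fold of 4.36 at percentile 96.4, a difference of -2.36 points. By width the difference was 2.02.

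**Figure D2:**
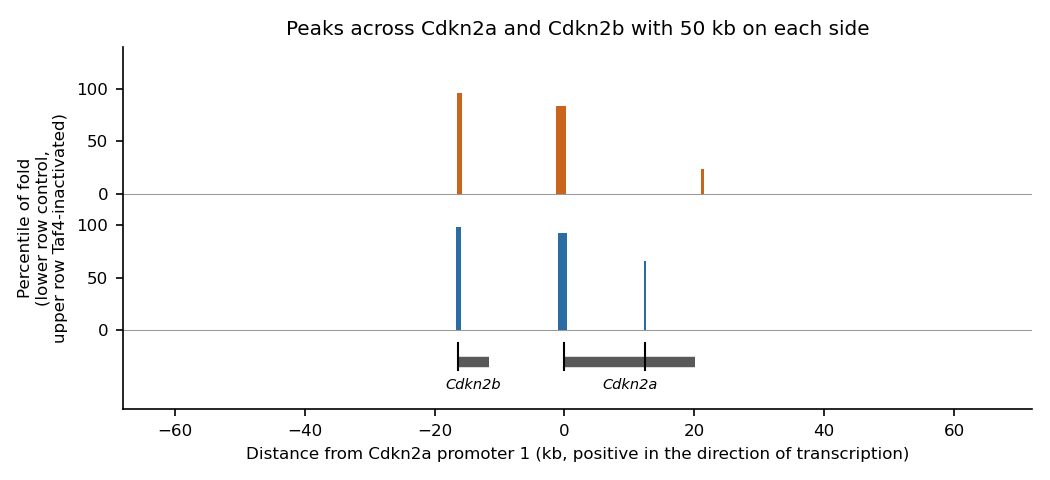
Peaks across Cdkn2a and Cdkn2b and 50 kb on each side, by distance from Cdkn2a promoter 1 (kb) and percentile of fold in each library's list (bar height; lower row control, upper row Taf4-inactivated, 1 library each). Grey bars are the genes and black ticks their promoters; the strong peaks at Cdkn2b and Cdkn2a promoter 1 appear in both rows, and the peak at Cdkn2a promoter 2 appears in the lower row only.

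The rest of the Cdkn2a and Cdkn2b locus was nearly bare in both lists. With 50 kb on each side of either gene, no peak lay away from annotated start sites in either library. The median protein-coding gene had 3.83 such peaks per 100 kb of window in control and 2.90 after Taf4 inactivation. The only other peak of the locus was in the Taf4-inactivated list, chr4:88919114-88919582, at the start site of the non-coding gene Gm12606 beyond the 3′ end of Cdkn2a, with a fold of 2.20 at percentile 23.4. The map of the locus shows these isolated bars.

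Cdkn2c, which encodes the INK4 inhibitor p18, lies elsewhere on chromosome 4 and has promoters starting at chr4:109339794 and chr4:109337977. A single peak reached from the first to the second in each list. In control it spanned chr4:109337885-109339848, with a fold of 2.75 at percentile 93.2. In the Taf4-inactivated list it spanned chr4:109337903-109339893, with a fold of 3.34 at percentile 84.3, a difference of -8.85 points. The widths were 1964 and 1991 bp, and ranked by width the difference was 1.32.

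Cdkn1a encodes p21, the CDK inhibitor through which p53 arrests the cycle, and has annotated promoters starting at chr17:29227924, chr17:29230717 and chr17:29235152. Only the middle one had a peak. The control peak, chr17:29230488-29232737, had a fold of 2.08 at percentile 57.5. The Taf4-inactivated peak, chr17:29230474-29232746, had a fold of 2.48 at percentile 52.7, a difference of -4.83 points. These were wide peaks of moderate height, 2250 and 2273 bp, and they stretched about as far into the gene in both lists, to 2020 and 2029 bp after the start site. Ranked by p, the percentiles were 89.0 and 81.2, and by width the difference was 0.723.

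Cdkn1b encodes p27, the CIP/KIP inhibitor that holds resting cells out of the cycle. Its promoter, starting at chr6:134870419, had a control peak at chr6:134869901-134871249 with a fold of 2.95 at percentile 95.6. The Taf4-inactivated peak, chr6:134869955-134871399, had a fold of 3.78 at percentile 91.2. The difference was -4.37 points by fold, -1.36 by p and 4.86 by width.

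Trp53 promoter 1, at chr11:69393861 on the plus strand with 3 start sites, faces the promoter of Wrap53, an antisense neighbour. Wrap53 also starts within 1 kb of the control peak and of the longer Taf4-inactivated peak described next, and to which of these genes those peaks belong cannot be told apart. In control 1 peak of 2695 bp covered the region, chr11:69392428-69395122, with a fold of 2.37 at percentile 83.9. The Taf4-inactivated list held 2 peaks in its place, of 1673 bp at chr11:69392331-69394003 and of 295 bp at chr11:69394875-69395169. The 295 bp peak lay near no other gene start. The folds of the longer and the shorter peak were 2.97 and 2.87, at percentiles 75.2 and 72.1. The higher of these gave a difference of -8.79 points. The gap between them fell inside the gene, between 142 and 1014 bp after the first start site.

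Such splits were uncommon. Among the 14321 control start site peaks of protein-coding promoters with a peak in both lists, 1.36% overlapped 2 or more Taf4-inactivated peaks, and among the 1296 of them at least 2000 bp wide, 11.9% did. The Trp53 and Bbc3 control peaks belonged to this wide class, as did the Cdkn1a peak, which was not split. In the other direction, 0.733% of Taf4-inactivated start site peaks overlapped 2 or more control peaks. The part of depth in these splits was not tested.

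The other Trp53 promoters were weak or empty. Promoter 2, at chr11:69400393, had no peak. Promoter 3, at chr11:69402197, is the start of a non-coding transcript inside the gene, and a control peak of 961 bp began just after it, chr11:69402203-69403163, with a fold of 1.94 at percentile 29.8. Its −log10 q was 1.76, where the lowest in the list was 1.01, and no Taf4-inactivated peak lay near it.

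Mdm2, which encodes the ubiquitin ligase that targets p53, has 7 start sites within its promoter 1, from chr10:117147814 to chr10:117147078 on the minus strand. The control peak, chr10:117147062-117148565, was 1504 bp wide with a fold of 3.01 at percentile 96.1. The Taf4-inactivated peak, chr10:117147057-117148119, was 1063 bp wide with a fold of 3.77 at percentile 91.1. The percentile difference was -5.05 points. The downstream edges nearly coincided within the gene, while the upstream edge lay 751 bp before the first start site in control and 305 bp before it in the Taf4-inactivated list. Promoter 2, at chr10:117128576, the start of a transcript with a retained intron, had no peak.

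Bbc3 encodes Puma, a p53-induced trigger of apoptosis. Its promoters 1 and 2, at chr7:16894965 and chr7:16898866, sat under the broadest member peak of control. In the Taf4-inactivated list only promoter 2 sat under the broadest member peak. The Bbc3 peaks were the lowest by fold at member start sites in both lists. The control peak covered both promoters, chr7:16894573-16899439, at 4867 bp with a fold of 1.78 at percentile 6.14. In the Taf4-inactivated list it was split. The upstream piece, chr7:16894550-16895632, was 1083 bp wide with a fold of 2.05 at percentile 6.64, and the downstream piece, chr7:16896479-16899633, was 3155 bp wide with a fold of 1.84 at percentile 0.335.

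By fold, the difference was 0.494 points at Bbc3 promoter 1 and -5.81 at promoter 2, which is a non-coding start site. Ranked by p, the control peak stood at percentile 72.6, above those of Cdkn2a promoter 2 at 55.7 and Trp53 promoter 3 at 39.0, and the Taf4-inactivated pieces stood at 64.0 and 45.5. These gave -8.63 at promoter 1 and -27.1 at promoter 2, the latter past the 20-point call. This was the only change of call among the members under another ranking.

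Ccng1 encodes cyclin G1, a p53 target that acts back on Mdm2. It had the strongest start site peak of the 9 genes in both lists. The control peak, chr11:40568191-40569030, had a fold of 3.80 and the Taf4-inactivated peak, chr11:40568303-40569089, a fold of 5.45, each at percentile 99.6 of its list. The difference was 0.00986 points. Both peaks covered promoter 1, at chr11:40568813, and their downstream edges lay at -751 and -863 bp from promoter 2, at chr11:40567440.

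**Figure D3:**
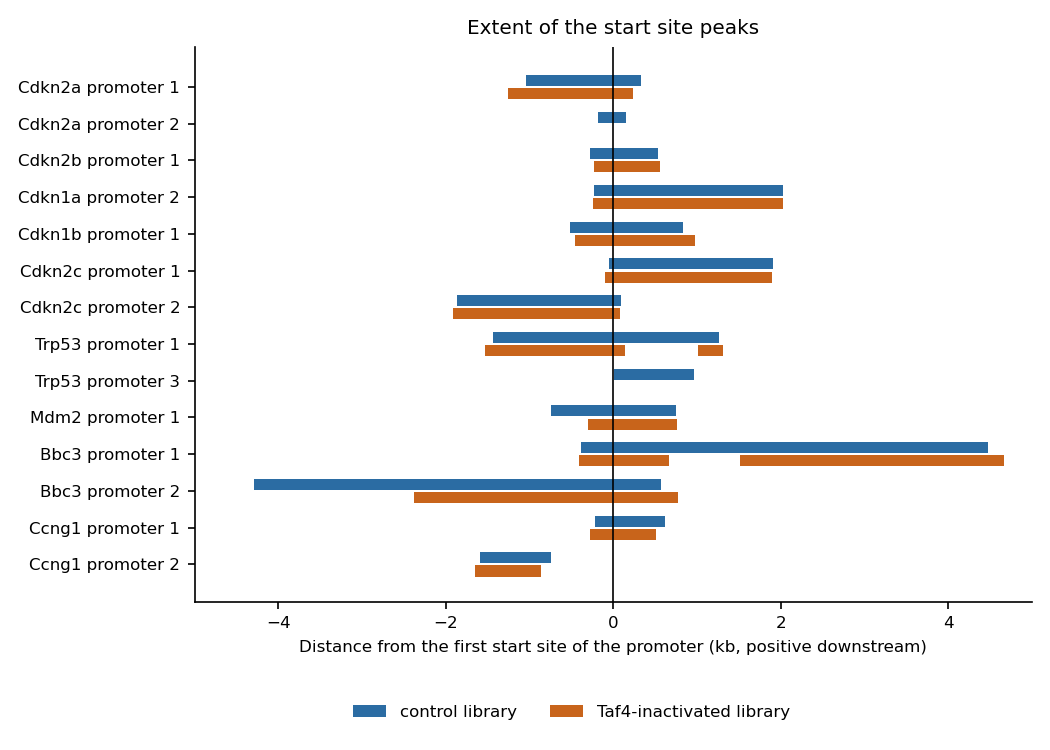
Extent of each start site peak around the first start site of its promoter (horizontal axis in kb, positive downstream), with upper bars for the control library and lower bars for the Taf4-inactivated library, 1 library each, for the 14 promoters with a peak. At Trp53 promoter 1 and at Bbc3 1 control bar stands against 2 Taf4-inactivated bars, and neighbouring promoters of Cdkn2c and Ccng1 show the same peaks from different start sites, while Bbc3 promoter 2 shows the control peak and the downstream piece alone.

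In the plot of peak extents, the edges of unsplit peaks differed most between the lists at Mdm2 promoter 1, on its upstream side. Over all protein-coding promoters with a peak in both lists, a median of 992 bp in control and 927 bp in the Taf4-inactivated list was covered within 1 kb on each side of the first start site. The Arf promoter had 1327 and 1240 bp covered, Cdkn2b 815 and 782, Cdkn1a promoter 2 1230 and 1244, Cdkn1b 1349 and 1445, and Trp53 promoter 1 2001 and 1143. At Trp53 promoter 1 the difference was -858 bp, the most negative among member promoters with a peak in both lists, against a median of -20.0 over all promoters.

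In base composition, member promoters with peaks in both lists ran from 0.193 to 1.11 of the predicted CpG, with a median of 0.618. The lowest was Ccng1 promoter 2, which is within 1 kb of the promoter 1 peak but not covered by it. With a peak in control only, Cdkn2a promoter 2 had 0.216 and Trp53 promoter 3 had 0.527. The 4 without a peak ran from 0.125 to 0.462, with a median of 0.139. Over all protein-coding promoters the medians were 0.689 with a peak in both lists, 0.253 with one in control only and 0.192 with none. Searched on both strands of the 200 upstream bases, the TATA box TATAAA was found before 1 member promoter (Ccng1 promoter 2) and 10.7% of all, CCAAT before 6 and 27.6%, and the GC box GGGCGG before 5 and 25.7%. Bbc3 promoter 1 held 5 GC boxes, the most among the members. Of the 9 first promoters of the members 8 had a peak in both lists, where the shares over first promoters of all protein-coding genes were 65.1% in control and 62.4% after Taf4 inactivation. The exception was Cdkn1a, whose middle promoter carries the peak.

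The p53 response element was searched in the genes and 50 kb on each side. It was taken as 2 directly adjacent copies of a 10-base unit, with at most 1 mismatch in all. Copies with a spacer of up to 13 bases were counted only inside peaks and without a mismatch. The unit is its own reverse complement, so both strands were covered. The windows held 10 such elements, all with 1 mismatch. They are shown for the genes known as p53 targets where they lie near a start site or a peak, with the element in capitals and 5 bases on each side, on the plus strand of mm9.
Ccng1, upstream of the start site, chr11:40568964-40568983: tgccaAGGCTTGCCCGGGCAGGTCTggcct
Ccng1, in an intron, chr11:40568438-40568457: ggcgcAGACTAGCCCGGGCTTGCGTtccgg
Cdkn1a, upstream, chr17:29227873-29227892: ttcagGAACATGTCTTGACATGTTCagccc
Mdm2, upstream, chr10:117148726-117148745: ggcccGGACTTGCCCGGAATTGCCCagttc
Mdm2, further upstream, chr10:117154792-117154811: tgcttGGACATGTTTGTACATGTTTcctcc
The Ccng1 elements were centred at -160 and 366 bp from the start site of promoter 1, and both lay wholly inside its peak in both lists. They were the only 2 of the 10 wholly inside a peak in either list. Over all start site peaks, 0.204% in control and 0.200% after Taf4 inactivation held an element. Of the 11 distinct member peaks, 1 did in each list.

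At Cdkn1a the printed element was centred at -42 bp from promoter 1 and -2834 bp from promoter 2. It lay in no peak. The nearest peak, that of promoter 2, began 2596 bp away in control and 2582 bp away in the Taf4-inactivated list. The second Cdkn1a element, at chr17:29215984-29216003, also lay in none.

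Mdm2 had 4 elements in its window. The nearer printed one was centred at -922 bp from the first start site, 161 bp beyond the edge of the control peak and 607 bp beyond that of the narrower Taf4-inactivated peak. The further one was centred at -6988 bp, and 10 bp of it overlapped a weak peak of the Taf4-inactivated list alone, chr10:117154802-117155704, with a fold of 2.23 at percentile 26.8. The other two, in an intron of Mdm2 and in an exon of the neighbouring Cpm, were in no peak. An element in an intron of Cdkn2b, at chr4:88954309-88954328, and another beyond Cdkn2a, at chr4:88880836-88880855, were in none either. No element was found in the windows of Cdkn1b, Cdkn2c, Trp53 and Bbc3, which says only that this pattern is not in those letters.

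**Figure D4:**
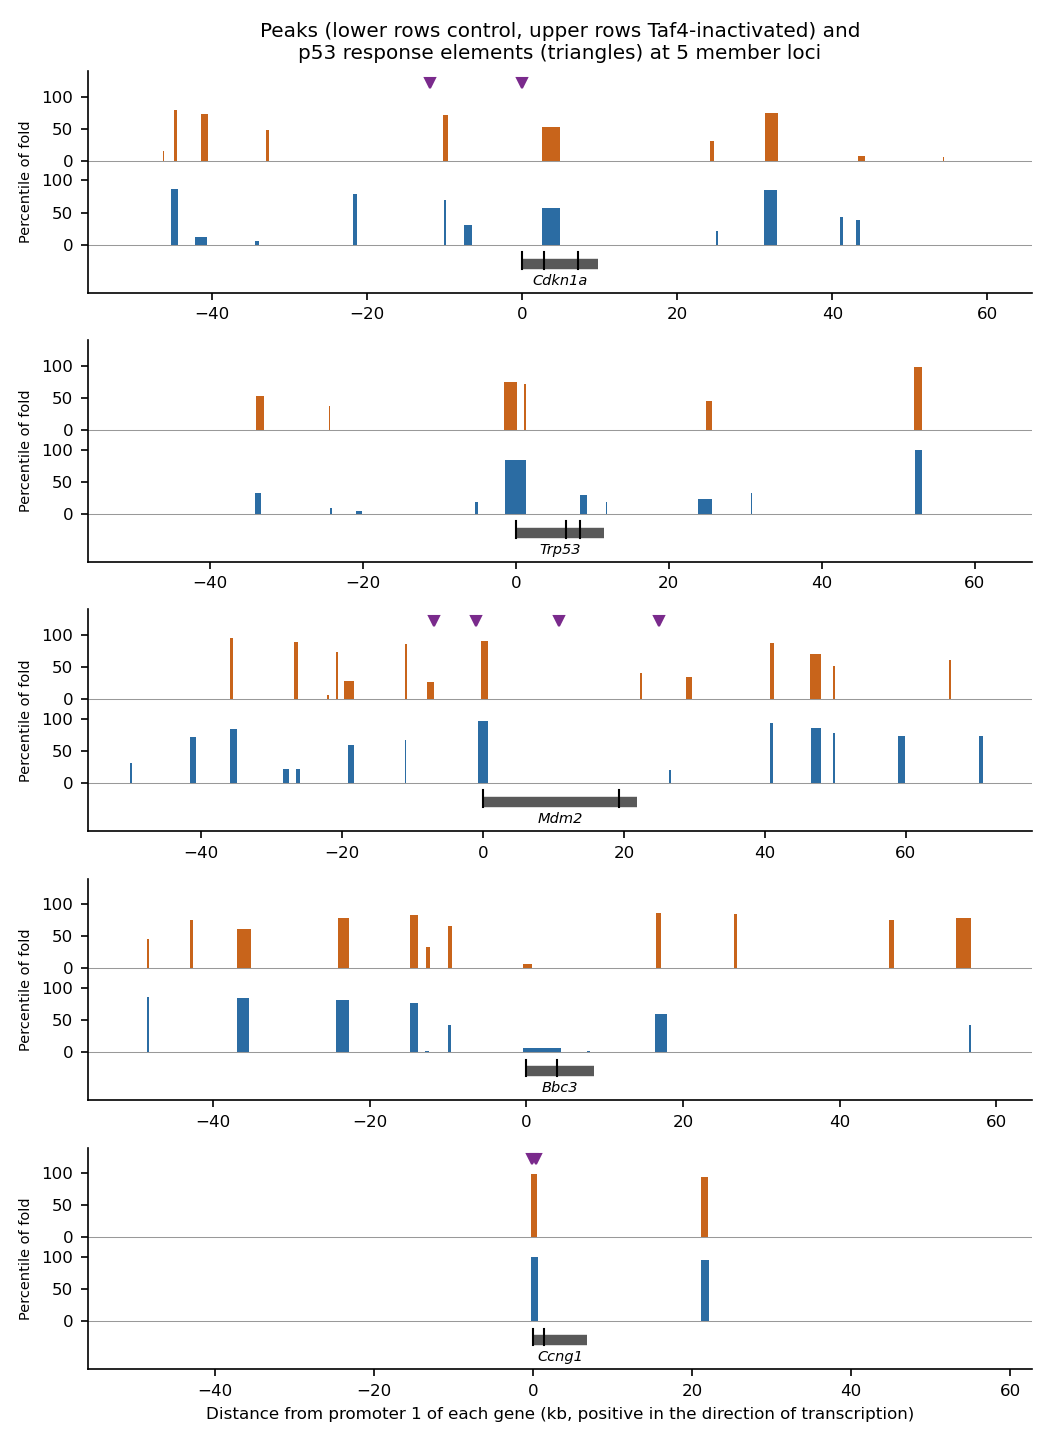
Peaks at Cdkn1a, Trp53, Mdm2, Bbc3 and Ccng1 with 50 kb on each side, by distance from promoter 1 of each gene (kb) and percentile of fold in each library's list (bar height; lower rows control, upper rows Taf4-inactivated, 1 library each). Triangles are p53 response elements with at most 1 mismatch, grey bars the genes and ticks their promoters; the 2 Ccng1 triangles stand over a peak in both rows and the Cdkn1a triangles over none, and bars of the lowest percentiles, such as the second Bbc3 piece at 0.335, are too short to see.

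Beyond the start sites of the gene itself, the 9 windows held 55 peaks in control and 50 after Taf4 inactivation, counting each peak once. Cdkn2a and Cdkn2b lie in each other's windows, so their start site peaks are also in these counts, as peaks at start sites of other genes. The order of these counts depends on the threshold: 37 against 40 when a −log10 q of 2 was required, and 12 against 24 at 5. Of the 55 and 50, 15 and 16 lay at start sites of other genes, and 40 and 34 away from any. Over the whole lists the ratio of peaks away from start sites, control over Taf4-inactivated, was 1.32. A peak of the other list overlapped 21 of the 40 control peaks away from start sites, 52.5% (exact binomial 95% interval 36.1 to 68.5), against 38.5% of all such control peaks. For the Taf4-inactivated list it was 20 of 34, 58.8% (40.7 to 75.4), against 51.2%. Both intervals contain the share over the whole list, and they cover counting error only. No member peak away from start sites held a p53 response element, where 0.240% in control and 0.258% after Taf4 inactivation did over all.

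The genes differed widely in how many such peaks surrounded them. Mdm2 had 11 in each list, 9.03 per 100 kb of window, which is percentile 90.7 of protein-coding genes in control and 97.3 after Taf4 inactivation. Cdkn1a had 9 in control and 7 after Taf4 inactivation (density percentiles 86.1 and 85.4), and Bbc3 had 7 and 9 (73.0 and 95.3). Cdkn1b had 7 and 5 (66.8 and 71.1) and Trp53 5 and 2 (55.6 and 35.2). Cdkn2c had 1 in control and none after Taf4 inactivation (19.7 and 8.30), while Ccng1, Cdkn2a and Cdkn2b had none in either (6.59 and 8.30).

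Away from start sites of any gene, the strongest shared peak around Cdkn1a lay 44.9 kb upstream in control, chr17:29182631-29183477, with a fold of 2.46 at percentile 87.1. The matching Taf4-inactivated peak, chr17:29182964-29183451, had a fold of 3.12 at percentile 79.5. A control peak 21.6 kb upstream in an intron of the non-coding gene Gm16197, chr17:29206102-29206576, had no partner, at percentile 78.9. The strongest Taf4-inactivated peak without a partner, chr17:29194899-29195293, was at percentile 48.7.

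Around Mdm2, again away from start sites, the strongest control peak with a partner lay in an intron of Cpm, chr10:117106650-117107127, with a fold of 2.76 at percentile 93.3. In the Taf4-inactivated list the strongest of this kind was in an intron of Slc35e3, chr10:117174099-117174550, with a fold of 3.59 at percentile 88.6. Its control partner, chr10:117173779-117174268, stood only at percentile 21.4. Without a partner, the strongest were chr10:117087891-117088915 in control, at percentile 73.1, and chr10:117168306-117168645 in the Taf4-inactivated list, at percentile 73.0.

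Of the Bbc3 peaks away from start sites, 3 of 9 in the Taf4-inactivated list and 1 of 7 in control had no partner. The shares with a partner were 66.7% and 85.7%, against 51.2% and 38.5% of all such peaks in these lists. The strongest of the 3 Taf4-inactivated ones without a partner lay 26.7 kb downstream in an intron of Sae1, chr7:16921508-16921814, with a fold of 3.35 at percentile 84.6. The single control one, chr7:16902677-16903105, overlapped an exon of Bbc3 and stood at percentile 1.81. Among shared peaks away from start sites, the strongest were chr7:16846495-16846759 in control, at percentile 85.2, and chr7:16911476-16912197 in the Taf4-inactivated list, at 85.7.

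Cdkn1b had a wide shared peak, its strongest away from start sites, 7.71 kb after its start site, chr6:134876958-134879295 in control, with a fold of 2.57 at percentile 89.9, and chr6:134876934-134878847 in the Taf4-inactivated list, with a fold of 2.77 at percentile 68.5. Its strongest peaks without a partner and away from start sites were chr6:134855583-134855942 in control, at percentile 47.6, and chr6:134922195-134922426 in the Taf4-inactivated list, at 58.8. Around Trp53 the peaks away from start sites were low. The strongest shared one, in an intron of Dnahc2, was at percentile 33.0 in control, chr11:69359664-69360550, and 52.7 in the Taf4-inactivated list, chr11:69359873-69360840. A control peak without a partner, chr11:69424569-69424800, was at 32.6. Both Taf4-inactivated peaks of this class at Trp53 had a partner. The single such peak of Cdkn2c, chr4:109319653-109320190 in an intron of Gm12811, was in control only, at percentile 23.7.

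Shared peaks at start sites of other genes were the strongest distal peaks in some of these windows. In the Cdkn2c window, the Faf1 start site had peaks at percentiles 99.8 in control, chr4:109348760-109349966, and 99.7 in the Taf4-inactivated list, chr4:109348777-109349844. In the Trp53 window, the start site that Fxr2 shares with Gm12309 had peaks at 99.8, chr11:69446017-69447009, and 98.7, chr11:69445944-69446959. For Ccng1 the only other shared peak of the window was at the start sites of Hmmr and Nudcd2, at percentile 94.3 in control, chr11:40546712-40547737, and 93.7 in the Taf4-inactivated list, chr11:40546786-40547741. Cdkn1b had the peak at the Gpr19 start site, at 93.6, chr6:134847189-134848787, and 92.0, chr6:134847732-134848817. Around Mdm2 this held in the Taf4-inactivated list only, where the Slc35e3 start site stood at 95.3, chr10:117183250-117183682, against 83.2 in control, chr10:117182620-117183656.

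To place the 9 genes in their pathway, 62 further genes were taken from 5 lists, each by its highest start site peak. That peak was picked separately in each library, so both values of a gene can come from different promoters. The pathway genes were not ranked by p or width, and neighbouring gene starts under their peaks were not looked up. Of the 62, 59 had a peak in control and 60 after Taf4 inactivation. Among the 59 with both, 3 were called higher and 6 lower, where 7.86% and 12.3% of protein-coding genes with both were, and the median difference was -2.09 points beside -2.77 over all protein-coding genes and -4.83 over the 9 members.

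**Figure D5:**
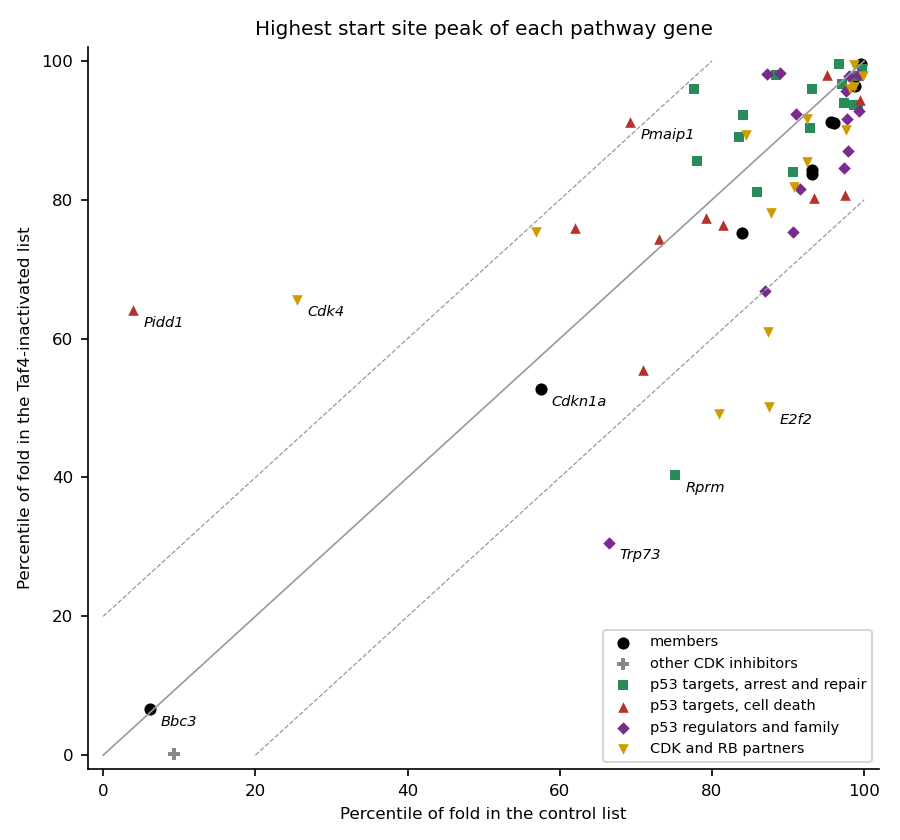
Percentile of fold of the highest start site peak of each gene in the control list (horizontal axis) and the Taf4-inactivated list (vertical axis), 1 library each, for the 9 members (black) and the pathway genes with a peak in both. The solid line marks equal percentiles and the dashed lines a difference of 20 points; no member lies beyond the dashed lines, and Pidd1 and Cdk4 lie furthest above.

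All 17 p53 targets for arrest and repair had a peak in both lists, with a median difference of -0.799. Of them only Rprm, a gene for G2 arrest, was called, lower, with percentiles of 75.2 and 40.3 and a difference of -35.0 points. Of the 13 p53 targets for cell death, 12 had a peak in control and all after Taf4 inactivation, with a median of -1.76. Pidd1, a p53-induced death domain protein, had the largest positive difference, 60.2 points, between percentiles 3.89 and 64.1. Pmaip1, which encodes the apoptosis trigger Noxa, stood at 69.2 and 91.2, a difference of 22.0 points. Casp1, an inflammatory caspase, had a peak in the Taf4-inactivated list only, at percentile 44.5.

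Among 15 p53 regulators and family members, 14 had a peak in both lists, with a median of -6.29. The family member Trp63 had none in either list, and Trp73 was called lower, at 66.5 and 30.6, a difference of -36.0. Twist1, a p53-binding developmental factor, was the other called lower, at -20.0 points. All 15 CDK and RB partners had a peak in both lists, with a median of -2.55. Cdk4, which the INK4 proteins inhibit, was called higher, at 25.5 and 65.6, a difference of 40.1 points. Cdk6, its close relative, was called lower, at 80.9 and 49.1, a difference of -31.8 points. E2f2 and E2f3, transcription factors that RB holds back, were called lower, at -37.5 and -26.3 points. Of the CDK inhibitors beside the members, Cdkn1c had a low peak in both lists, at 9.31 and 0.170, and Cdkn2d had none in either.

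By the distance between both percentiles, over 2 libraries and 59 candidates, the pathway gene most like Cdkn2b was Rb1, at 0.278 points, and that most like Ccng1 was Rrm2b, at 0.672 points. Cdkn2a and Cdkn2c were nearest to E2f1, at 1.92 and 1.35 points. For Cdkn1b and Mdm2 it was Sirt1, at 2.17 and 1.63 points, and for Trp53 it was Tnfrsf10b, at 2.83 points. Cdkn1a and Bbc3 had no close counterpart, the nearest being Eda2r at 13.7 points and Cdkn1c at 7.20 points. With 2 libraries, this likeness is a description of position only.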

How the data were processed

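The ATAC-seq peaks of both enteroid libraries were used, 1 per genotype as labelled. Per the submitters' processing notes and the study's methods, reads were mapped to mm9 with Bowtie 1.0.0, keeping uniquely mapped reads, and broad peaks were called in each library with MACS2 2.1.1. The treatment of duplicate and mitochondrial reads was not given in the sources used here. The deposited values are fold enrichment over local background (a ratio), −log10 p, −log10 q and a score of 10 times the −log10 q, averaged by the authors over each peak. Each list thus depends on the depth of its library.

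Peaks were joined to GENCODE vM1 start sites on mm9 (within 1 kb) and to gene bodies with 50 kb on each side. Partners were peaks of the other list with an overlap of 1 bp or more. For a promoter with several peaks, the highest fold was taken. Depth was solved from the fold and the Poisson p, taking the 5th percentile of the background level in the narrowest 10% of peaks. Python 3.11.15, numpy 2.4.6, pandas 2.3.3, scipy 1.17.1 and matplotlib 3.10.9 were used. The start site join with ranks and the partners were tested on altered control peaks. The p53 response elements and the depth were tested on simulated data. Of these checks, 8 of 8 gave the planted answer. The depth check used all simulated peaks, not the narrowest 10%, and values not averaged over a peak. It therefore does not cover the setting in which the depth ratio was computed. The other steps were not tested in this way. Sequences were read from the mm9 genome. The members, the lists and the thresholds were chosen with earlier results of these data known. Named were all member promoters and start site peaks, the strongest distal peak with and without a partner per gene and list, both away from start sites and with start sites of other genes included, peaks touching a p53 response element, pathway genes without a peak in a list or with the 3 largest differences in each direction, and the nearest pathway gene of each member. Cdk6, E2f3 and Twist1 were named after their values were seen. Of the markers of other cell types, 1 is not reported here.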

Additional observations from a re-analysis of the deposited data

How the results depend on the processing

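Alternatives were taken as close to the reported value within 1.5 times for a count, within its interval for a share, within 10 points for a single rank difference and within 5% for the depth ratio. By this, 55 of 73 counts, shares and ratios stayed close and 18 moved. The 55 include fixed outcomes: with no member promoter called at the main threshold, none could be called at 50 points. For single promoters 54 of 59 stayed close, but many of these could not move. The widest peak was also the highest by fold except at Bbc3 promoter 1. Elsewhere, taking the widest peak returned the reported value. Requiring an overlap of 50% of both peaks also returned it, and gave no value for Bbc3 promoter 1. Some signs turned under other rankings. By width, Cdkn1b had 4.86, Cdkn2b 2.02 and Cdkn1a promoter 2 0.723. Bbc3 promoter 1 had -8.63 by p, -1.02 among start site peaks and -5.81 by its widest peak. The 5 that moved were these: by width, Cdkn2a promoter 1 had 4.99, both Cdkn2c promoters 1.32 and Bbc3 promoter 1 -16.1, and by p, Bbc3 promoter 2 had -27.1, so that 1 promoter was called lower. Promoters with a peak in control only numbered 1 when a −log10 q of 2 was required, 0 at 5, 1 with start sites of protein-coding transcripts only, and 3 with start sites within 2 kb. Distal peaks numbered 13 and 11 (control and Taf4-inactivated) with a reach of 10 kb, 104 and 98 with 100 kb, and 37 and 40 when a −log10 q of 2 was required and 12 and 24 at 5, so the order of the libraries turned at both thresholds. The share with a partner, 63.6% and 68.0% over all distal peaks, was 41.8% and 46.0% when 50% of both peaks had to overlap, and 100% and 87.5% for peaks past a −log10 q of 5 against all peaks of the other list. With no mismatch allowed, or with a spacer of 0 to 13 bases and no mismatch, 0 p53 response elements lay in member peaks in each list. No paired analysis was possible because each genotype had 1 library. Nor could a library be left out. The control library had 1.65 times the estimated depth, and the number of weak peaks in each list is limited by depth.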
